A study of Mus musculus with 16 samples.

Results

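The secreted ligands of the EGF receptor family were followed across 4 sorted cell populations of the mouse colon, using the probe sets whose only gene symbol in the platform table is Hbegf, Areg, Ereg, Btc, Tgfa, Egf or Nrg1. Of the 45141 probe sets on the array, 10 met this rule, and they covered 6 of the 7 genes: Hbegf with 2, Btc with 2, Tgfa with 3, and Ereg, Egf and Nrg1 with 1 each. Areg was named by no such probe set and is not analysed here. For each gene the probe set of highest mean log2 signal was used, as for all 17097 genes tested.

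The cells came from C57BL/6 mice of the genotype Gli1CreERT2-ZsGreen, in which a tamoxifen-dependent Cre expressed from Gli1 labels cells with the green protein ZsGreen. The 4 mice received 1 mg tamoxifen intraperitoneally on each of 5 days, and their colons were taken on day 6. Ages were not given in the labels, and no untreated or unlabelled mouse was included. Colon cells negative for Epcam, CD45 and CD31 and positive for gp38 (the product of Pdpn) were divided by Sca1 and ZsGreen. Sca1+ cells were split into ZsGreen-high, ZsGreen-dim and Sca1+ ZsGreen-negative cells, and the last population was Sca1- ZsGreen-negative. The high and dim cells are written without Sca1+ from here on. Each population of each mouse gave 1 array, 16 in all, amplified from 2 ng of RNA. All 4 populations shared the genotype, the tamoxifen and the gate, and the reporter marks cells by Gli1 activity, not by a cell type.

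EGF family ligands are made as membrane-anchored precursors, which metalloproteases of the ADAM family cut to release the active factor. Egf, Tgfa and Areg bind the EGF receptor, Hbegf, Btc and Ereg bind both the EGF receptor and ErbB4, and Nrg1 binds ErbB3 and ErbB4, while ErbB2 has no ligand of its own and pairs with the other receptors. In the gut these factors act on the epithelium, where they promote crypt cell division and repair, and some of them are made by the mesenchyme beneath the crypts.

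Sequences are shown for 1 ligand gene and 1 receptor gene, to set a gene of the ligand cluster beside the receptor that most of these ligands bind. In the RefSeq annotation (GRCm38.p6), Epgn, Ereg, Areg and Btc lie next to each other on chromosome 5 in this order among protein-coding genes. Promoter windows were 300 bases long, 250 before and 50 after the start of the gene. They were taken from the RefSeq-based table for 10 of the 15 ligand and receptor genes, with 2 for Egf. The search did not cover Hbegf, whether or not the table holds a window for it. Btc, which lies in the same cluster as Ereg with Areg between them, has its window on the minus strand of chr5:91402945-91403244. Egfr, 1 of 3 receptors whose signal differed between populations, has its window on the plus strand of chr11:16751953-16752252. Capitals mark a match, on either strand, to GGGCGG, the core of a GC box.
Btc: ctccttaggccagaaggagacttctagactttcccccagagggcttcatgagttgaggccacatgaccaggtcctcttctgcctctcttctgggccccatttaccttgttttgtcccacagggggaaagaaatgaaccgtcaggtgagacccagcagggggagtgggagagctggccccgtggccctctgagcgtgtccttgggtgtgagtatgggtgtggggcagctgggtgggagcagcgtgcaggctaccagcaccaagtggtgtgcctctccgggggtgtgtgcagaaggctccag
Egfr: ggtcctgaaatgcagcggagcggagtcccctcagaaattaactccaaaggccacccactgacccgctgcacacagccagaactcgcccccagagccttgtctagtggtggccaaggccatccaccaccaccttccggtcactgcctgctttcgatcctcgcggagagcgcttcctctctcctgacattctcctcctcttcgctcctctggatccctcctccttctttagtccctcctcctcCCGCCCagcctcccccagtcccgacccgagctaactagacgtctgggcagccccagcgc
The Egfr window held 1 GC box match and the Btc window 0, and 35.7% of all 32851 windows in the table held at least 1. GACCACCCA, a form of the site bound by GLI proteins, and TGACTCA, a form of the AP-1 site, were searched on both strands as well. Neither was found in any of the 11 windows taken, none of which is of Hbegf, and they occurred in 0.253% and 5.2% of all windows.

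Signals are given as recovered whole-number array signals, and the highest of 23 nonspecific control probe sets on the same array, between 234 and 488, serves as the background. Correlations of log2 signal over all probe sets between arrays of the same population ran from 0.968 to 0.994. Gli1 was above background on all 16 arrays and rose by 1.27 log2 units from Sca1+ ZsGreen-negative to ZsGreen-high cells (SE 0.21, limma adjusted p = 0.00053). All 19 measured epithelial markers fell in the same comparison, against 13.9% of all genes, although the sort removed Epcam+ cells. Epcam itself averaged 17880 ± 3520 (SD, n = 4) in Sca1+ ZsGreen-negative and 3472 ± 2370 (SD, n = 4) in ZsGreen-high cells. On the arrays labelled mouse 2, Xist was high and the Y genes low in both ZsGreen-negative populations, and the reverse held in ZsGreen-high and ZsGreen-dim cells, while the arrays of each other mouse were of 1 kind. The 4 arrays labelled mouse 2 therefore do not all match 1 animal. The populations were also unbalanced in this respect. Y genes were high on the arrays of mice 1 and 2 in both ZsGreen-positive populations, but only on that of mouse 1 in both ZsGreen-negative ones. With the Xist and Y gene class as a covariate, the only ligand call that changed was Nrg1 between ZsGreen-high and ZsGreen-dim cells, which then passed (limma adjusted p = 0.0356). Comparisons within a mouse between ZsGreen-positive and ZsGreen-negative arrays are counted over the other 3 mice, and results that rest on mouse 2 are given with and without it. The Sca1+ ZsGreen-negative array of mouse 1 also stood apart, with a mean log2 signal of 12.24 over 8 genes of PDGFRA-high subepithelial cells against 11.21 to 11.75 on the other 3 arrays of its population.

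Of the 6 ligands measured, Hbegf was lower in ZsGreen-high cells than in both ZsGreen-negative populations, while Nrg1 was higher than in both and Ereg was higher than in Sca1- ZsGreen-negative cells. Egf and Tgfa showed small differences that each passed in 1 comparison, and Btc passed in none. In the test of any difference among the 4 populations (limma F test, adjusted over all 17097 genes), 3 of the 6 passed: Hbegf (adjusted p = 0.000291), Nrg1 (adjusted p = 0.0021) and Ereg (adjusted p = 0.0029). Of all genes, 32.3% passed that test. A difference in these bulk samples cannot separate fewer cells of a type from less RNA per cell.

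Hbegf, the precursor of heparin-binding EGF-like growth factor, is made by many epithelia and was represented by probe set 1418349_PM_at. In ZsGreen-high cells its signal was 2123, 2223, 7909 and 4187 in mice 1 to 4. In ZsGreen-dim cells it was 7103, 10769, 15980 and 16538. In Sca1+ ZsGreen-negative cells it was 16405, 19002, 23717 and 23717. The 4 ZsGreen-high arrays did not overlap with the Sca1+ ZsGreen-negative arrays, and their highest value, that of mouse 3, lay above the lowest ZsGreen-dim value, that of mouse 1. The Sca1- ZsGreen-negative arrays, at 14557, 21248, 26160 and 23982, covered the range of the Sca1+ ZsGreen-negative ones.

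From Sca1+ ZsGreen-negative to ZsGreen-high cells Hbegf fell by 2.53 log2 units (SE 0.37, adjusted p = 0.000314), a level 5.79-fold lower, and was lower in 3 of the 3 mice counted. Against Sca1- ZsGreen-negative cells it fell by 2.57 log2 units (SE 0.37, adjusted p = 0.000107). Both differences remained past the threshold without mouse 2, at -2.35 (adjusted p = 0.0134) and -2.34 (adjusted p = 0.00654). The 2 ZsGreen-negative populations differed by -0.037 log2 units (SE 0.37, adjusted p = 0.991).

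Between ZsGreen-high and ZsGreen-dim cells Hbegf fell by 1.75 log2 units (SE 0.37, adjusted p = 0.0333), and it was lower in ZsGreen-high cells in 4 of 4 mice. This call was lost without mouse 2 (-1.58, adjusted p = 0.253) and without mouse 4 (-1.68, adjusted p = 0.267), and all genes called in this comparison numbered 0 in either case. It was also lost without the ZsGreen-high array of mouse 1 (adjusted p = 0.134), 2 (adjusted p = 0.117) or 4 (adjusted p = 0.0676), or the ZsGreen-dim array of mouse 2 (adjusted p = 0.0517), 3 (adjusted p = 0.121) or 4 (adjusted p = 0.113). ZsGreen-dim cells did not pass against Sca1+ ZsGreen-negative cells (-0.78, SE 0.37, adjusted p = 0.235) or Sca1- ZsGreen-negative cells (-0.82, SE 0.37, adjusted p = 0.16). With the mouse as a block, as the labels pair the arrays, both passed, at adjusted p = 0.0242 and 0.0118. With the block dividing mouse 2 into its ZsGreen-positive and ZsGreen-negative arrays, the first no longer passed (-0.66, adjusted p = 0.0684) and the second did (-0.69, adjusted p = 0.0352).

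The other Hbegf probe set, 1418350_PM_at, averaged 3384 ± 2230 (SD, n = 4) in ZsGreen-high, 10250 ± 3570 in ZsGreen-dim, 17750 ± 3580 in Sca1+ ZsGreen-negative and 18050 ± 4400 in Sca1- ZsGreen-negative cells. With limma, adjusted over all probe sets, it passed the same 3 comparisons as the first, at adjusted p = 0.000389, 0.0454 and 0.000132.

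The Hbegf signal followed epithelial genes from array to array. Its log2 signal correlated with the mean of the 19 epithelial markers at r = 0.99 over the 16 arrays and at r = 0.956 after each population's mean was subtracted, where the arrays share their mice and their scaling. That epithelial mean was 11.65 ± 0.87 log2 units (SD, n = 4) in ZsGreen-high, 13.26 ± 0.53 in ZsGreen-dim, 13.99 ± 0.31 in Sca1+ ZsGreen-negative and 13.96 ± 0.47 in Sca1- ZsGreen-negative cells. The 5 genes most like Hbegf over all 16 arrays were Cdh1 (r = 0.996), which encodes E-cadherin, Car2, a carbonic anhydrase of surface enterocytes, Dsp, a desmosome protein, Tmem45b and Tgm3. With the epithelial mean as a covariate the ZsGreen-high difference from Sca1+ ZsGreen-negative cells was -0.31 (adjusted p = 0.783), in a fit that called 1 of 17097 genes in that comparison. The difference from Sca1- ZsGreen-negative cells was then -0.37 (adjusted p = 0.494) and that from ZsGreen-dim cells -0.23 (adjusted p = 0.801), where the fit called 293 and 0 genes. Mesothelial markers also moved with Hbegf within populations (r = 0.866). From Sca1+ ZsGreen-negative to ZsGreen-high cells 4 of 8 of them fell, against 13.9% of all genes. In that comparison 9 of 12 endothelial markers fell and 1 rose, and 4 of 16 leukocyte markers fell. Hbegf correlated with the endothelial list at 0.613 and the leukocyte list at 0.837 over the 16 arrays. Within populations these were -0.061 and 0.467. The part of any of these marker lists in the Hbegf difference was not tested beyond the fit with the epithelial covariate.

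**Figure D1:**
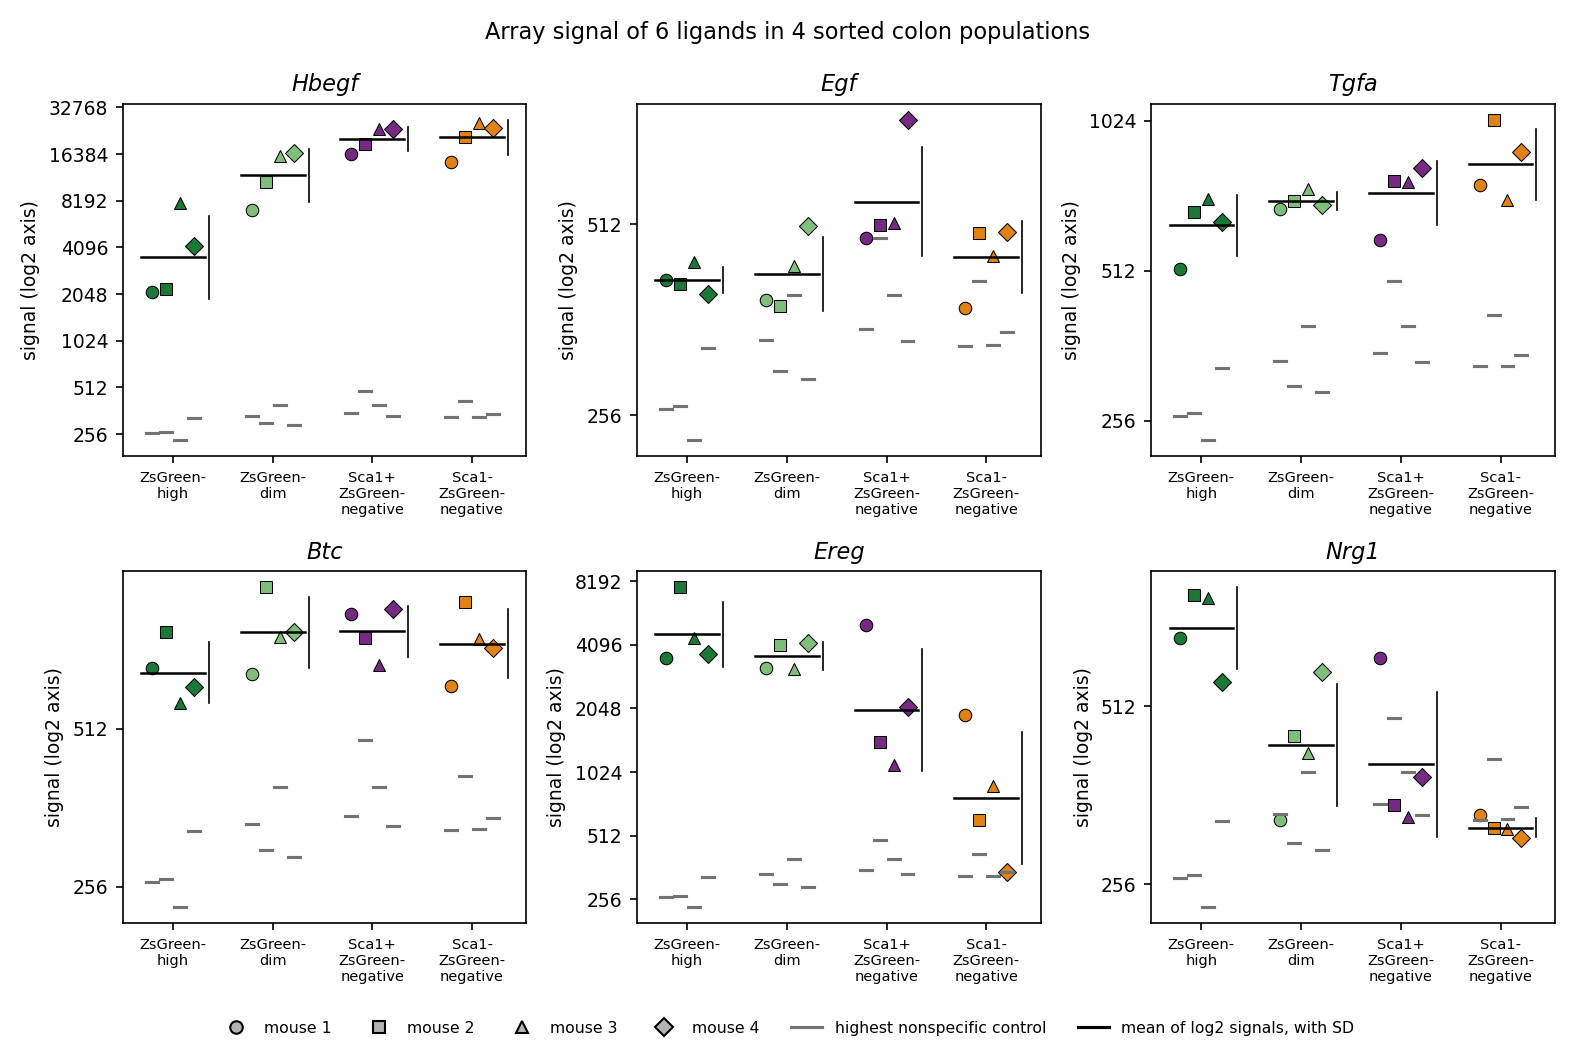
Signal of each measured ligand (log2 axis) on the 16 arrays, by sorted population, with 1 symbol per mouse; black lines give the mean of the log2 signals and its SD over 4 arrays, and grey dashes the highest nonspecific control of each array. Hbegf has its lowest mean in ZsGreen-high cells, with arrays between 2123 and 7909, whereas Ereg and Nrg1 have their highest means there. For each of these ligands the ZsGreen-high and ZsGreen-dim arrays overlap. Nrg1 comes down to the background in Sca1- ZsGreen-negative cells.

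Ereg, the precursor of epiregulin, is a ligand made by fibroblasts and macrophages as well as by epithelia, and was represented by probe set 1419431_PM_at. In ZsGreen-high cells its signal was 3534, 7682, 4438 and 3724 in mice 1 to 4, and in ZsGreen-dim cells 3198, 4073, 3152 and 4189. In Sca1+ ZsGreen-negative cells it was 5080, 1424, 1101 and 2074, so that the array of mouse 1 lay within the ZsGreen-high range and the other 3 below it. In Sca1- ZsGreen-negative cells it was 1917, 606, 879 and 343, below every ZsGreen-high and ZsGreen-dim array, and the value of mouse 4 did not exceed its background of 346.

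Ereg was 5.98-fold higher in ZsGreen-high than in Sca1- ZsGreen-negative cells (2.58 log2 units, SE 0.49, adjusted p = 0.000752), in 3 of the 3 mice counted. It was 4.71-fold higher in ZsGreen-dim than in Sca1- ZsGreen-negative cells (2.23 log2 units, SE 0.49, adjusted p = 0.00701), again in 3 of 3 mice. Without mouse 2 the first difference was 2.22 (adjusted p = 0.024) and the second was 2.06 and no longer passed (adjusted p = 0.0921). The second was also lost without mouse 4 (1.78, adjusted p = 0.104). With the epithelial mean as a covariate the first was 1.204 and no longer passed (adjusted p = 0.573), in a fit that called 293 genes in that comparison, and the second was 1.82 (adjusted p = 0.0297).

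Against Sca1+ ZsGreen-negative cells Ereg was 1.19 log2 units higher in ZsGreen-high cells (SE 0.49, adjusted p = 0.0773) and higher in 2 of the 3 mice counted, which did not pass. The exception was mouse 1, and without its Sca1+ ZsGreen-negative array the difference was 1.64 (adjusted p = 0.0104). It also passed without the whole of mouse 1 (1.76, adjusted p = 0.00231) and without the Sca1- ZsGreen-negative array of mouse 1 (1.19, adjusted p = 0.0352). For ZsGreen-dim cells the difference was 0.84 (SE 0.49, adjusted p = 0.331), and without mouse 1 it was 1.35 (adjusted p = 0.0341). Sca1+ exceeded Sca1- ZsGreen-negative cells in 4 of 4 mice by 1.39 log2 units (SE 0.49, adjusted p = 0.198), and without the Sca1- ZsGreen-negative array of mouse 1 by 1.83 (adjusted p = 0.0266). ZsGreen-high and ZsGreen-dim cells differed by 0.35 (SE 0.49, adjusted p = 0.778).

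Nrg1, neuregulin 1, was represented by probe set 1456524_PM_at. Its signal in ZsGreen-high cells was 666, 789, 780 and 562 in mice 1 to 4, all above background. In ZsGreen-dim cells it was 329, 456, 427 and 584, above background on 3 of 4 arrays. In Sca1+ ZsGreen-negative cells it was 616, 349, 333 and 388, above background on 2 arrays, those of mice 1 and 4. In Sca1- ZsGreen-negative cells it was 335, 318, 317 and 306, above background on 1 array, so the level there is close to what the array can detect. These counts also depend on the background of each array. It was 262, 265, 234 and 327 on the ZsGreen-high and 329, 417, 330 and 346 on the Sca1- ZsGreen-negative arrays.

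Since only some arrays of the ZsGreen-negative populations measured Nrg1 above background, its differences from them are given on the log2 scale, with no fold. Nrg1 was higher in ZsGreen-high than in Sca1+ ZsGreen-negative cells, where 2 of 4 arrays were above background, by 0.76 log2 units (SE 0.19, adjusted p = 0.00661), in 3 of the 3 mice counted. The call was lost without mouse 2 (0.62, adjusted p = 0.106) and without mouse 3 (0.61, adjusted p = 0.0835). Against Sca1- ZsGreen-negative cells, where 1 of 4 arrays was above background, the difference was 1.12 log2 units (SE 0.19, adjusted p = 0.00034), and it passed without mouse 2 (1.06, adjusted p = 0.012). Between ZsGreen-high and ZsGreen-dim cells the difference of 0.66 log2 units (SE 0.19, adjusted p = 0.091) did not pass, and it passed without the Sca1+ ZsGreen-negative array of mouse 1 (adjusted p = 0.0397), whose removal changes only the pooled spread here. ZsGreen-dim cells exceeded Sca1- ZsGreen-negative cells by 0.46 (SE 0.19, adjusted p = 0.119), which passed without mouse 1 (0.63, adjusted p = 0.0103) or without its Sca1+ ZsGreen-negative array (adjusted p = 0.046). The difference between the ZsGreen-negative populations was 0.36 (SE 0.19, adjusted p = 0.525). Fitted with the epithelial covariate, the ZsGreen-high differences were 0.71 (adjusted p = 0.591) from Sca1+ and 1.07 (adjusted p = 0.158) from Sca1- ZsGreen-negative cells.

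Ereg and Nrg1 moved with several lists of mesenchymal markers. One holds markers of PDGFRA-high cells, the subepithelial fibroblasts that abut the crypts. The mean log2 signal of the 8 genes on that list was 12.21 ± 0.21 (SD, n = 4) in ZsGreen-high, 11.87 ± 0.23 in ZsGreen-dim, 11.63 ± 0.47 in Sca1+ ZsGreen-negative and 11.16 ± 0.31 in Sca1- ZsGreen-negative cells. Over the 16 arrays, Ereg correlated with it at r = 0.926 and Nrg1 at r = 0.901, and with population means subtracted at 0.821 and 0.787. Ereg correlated nearly as closely with the adventitial CD34+ fibroblast list (r = 0.913) and the general fibroblast list (r = 0.912), and Nrg1 with them at 0.687 and 0.691. With population means subtracted these were 0.684 and 0.696 for Ereg and 0.052 and 0.203 for Nrg1, while smooth muscle markers reached 0.809 and 0.547 and pericyte markers 0.71 and 0.534. Of the 8 PDGFRA-high genes, 5 rose from Sca1+ and 6 from Sca1- ZsGreen-negative to ZsGreen-high cells. So did 4 and 6 of the 8 adventitial, 5 and 9 of the 10 fibroblast, 6 and 3 of the 8 smooth muscle and 0 and 0 of the 5 pericyte markers. Of all genes, 17% and 19.2% rose. In the same order, 1 and 1 of the adventitial and 0 and 1 of the pericyte markers fell, and 0 of the other lists. Of all genes, 13.9% and 16.7% fell. The part of these lists in the differences of Ereg and Nrg1 was not tested. Ereg and Nrg1 themselves correlated at r = 0.812 over all arrays and 0.657 within populations.

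The genes most like Ereg over the 16 arrays were Pcsk6 (r = 0.968), a proprotein convertase, Ogn, a small matrix proteoglycan, Srpx2, Bmp5, a bone morphogenetic protein, and Pqlc3. Those most like Nrg1 were Bmp7 (r = 0.93), another bone morphogenetic protein, Nckap5, Dipk2a, Hnrnpa0 and Casq2. Within populations the closest were Gnai1 for Ereg (r = 0.943) and Prkacb for Nrg1 (r = 0.857). Bmp5, like Ereg, had a far higher Sca1+ ZsGreen-negative maximum (16358) than minimum (5298).

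**Figure D2:**
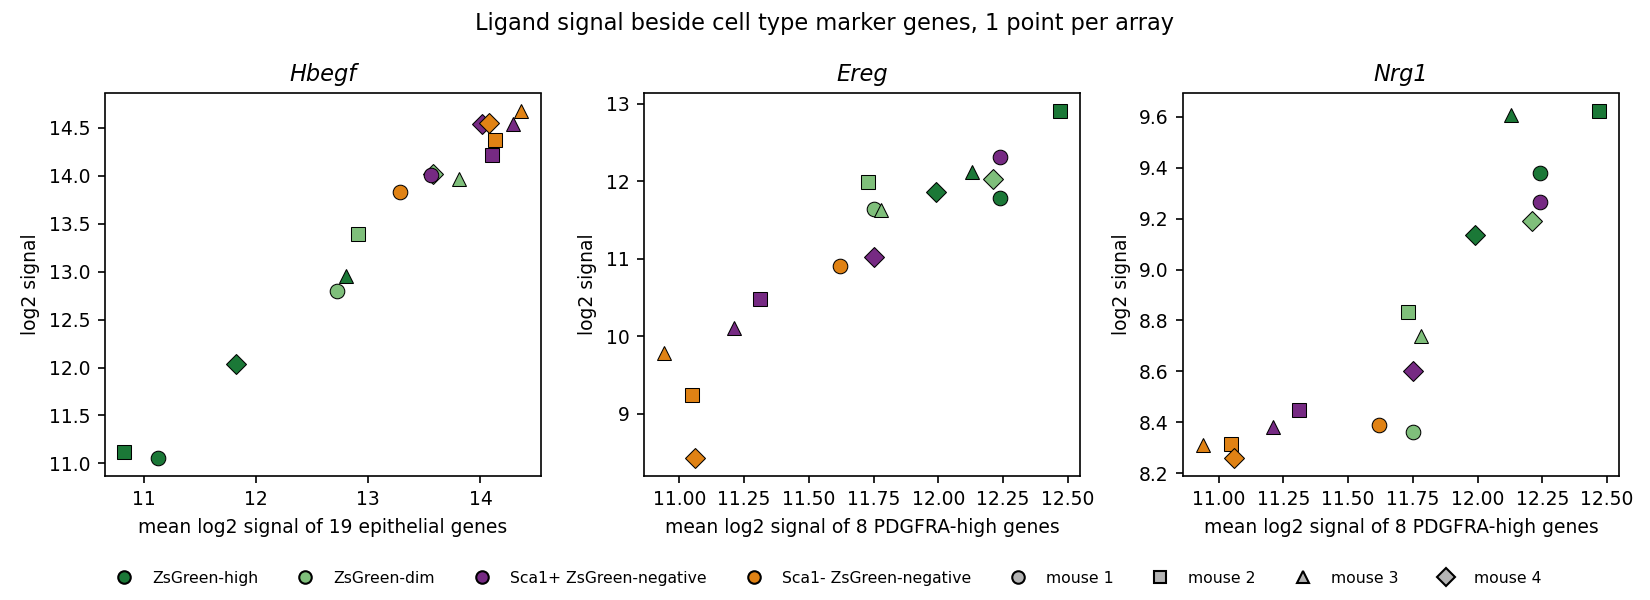
Log2 signal of Hbegf against the mean of 19 epithelial genes, and of Ereg and Nrg1 against the mean of 8 genes of PDGFRA-high subepithelial cells, with 1 point per array coloured by population and shaped by mouse. The points of Hbegf rise along 1 line through all populations (r = 0.99), and the Sca1+ ZsGreen-negative array of mouse 1 lies with the ZsGreen-high arrays in the panels of Ereg and Nrg1.

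Egf, the founding ligand of the family, was represented by probe set 1418093_PM_a_at, with signals of 419, 413, 446 and 397 in ZsGreen-high cells and 389, 381, 441 and 510 in ZsGreen-dim cells. In Sca1+ ZsGreen-negative cells it gave 487, 511, 514 and 748, and in Sca1- ZsGreen-negative cells 378, 497, 457 and 498. All of these were above their array's background, some by little, as for 511 beside 488 in Sca1+ ZsGreen-negative cells of mouse 2. The background itself was 262, 265, 234 and 327 on the ZsGreen-high and 350, 488, 396 and 335 on the Sca1+ ZsGreen-negative arrays. In Egf signal the Sca1+ ZsGreen-negative arrays lay above every ZsGreen-high array. Egf fell by 0.41 log2 units from Sca1+ ZsGreen-negative to ZsGreen-high cells (SE 0.13, adjusted p = 0.0296), in 3 of the 3 mice counted, a level 1.33-fold lower.

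That call rested on single arrays. It was lost without mouse 2 (adjusted p = 0.0975), mouse 3 (adjusted p = 0.0689) or mouse 4 (-0.24, adjusted p = 0.13). It was lost without the Sca1+ ZsGreen-negative array of mouse 4 (-0.27, adjusted p = 0.0925) and without the ZsGreen-high array of mouse 1 (adjusted p = 0.0613), 2 (adjusted p = 0.064) or 4 (adjusted p = 0.0706). When arrays were scaled to their hybridization controls, which raised the median difference of all genes in this comparison from -0.002 to 0.38 log2 units, the Egf difference was -0.029 (adjusted p = 0.886). With the mouse as a block, ZsGreen-dim cells also passed against Sca1+ ZsGreen-negative cells (-0.38, adjusted p = 0.0374, against 0.13 without the block), but not with the block dividing mouse 2 (-0.35, adjusted p = 0.0942). With the epithelial mean as a covariate the ZsGreen-high difference from Sca1+ ZsGreen-negative cells was -0.057 (adjusted p = 0.982). In the other 4 comparisons the Egf difference lay between -0.12 and 0.29 and none passed.

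Tgfa, transforming growth factor alpha, was represented by probe set 1421942_PM_s_at, which gave 517, 670, 712 and 642 in ZsGreen-high cells and 680, 705, 747 and 693 in ZsGreen-dim cells. It gave 590, 775, 770 and 822 in Sca1+ and 761, 1027, 709 and 885 in Sca1- ZsGreen-negative cells, and the populations overlapped. Tgfa fell by 0.41 log2 units from Sca1- ZsGreen-negative to ZsGreen-high cells (SE 0.13, adjusted p = 0.0216), and was lower in 2 of the 3 mice counted, but the sign turned to 0.027 (adjusted p = 0.897) under scaling to the hybridization controls. The call was lost without mouse 2 (-0.34, adjusted p = 0.133), mouse 4 (-0.39, adjusted p = 0.112), the ZsGreen-high array of mouse 1 (adjusted p = 0.0808) and the Sca1- ZsGreen-negative array of mouse 2 (adjusted p = 0.0792) or 4 (adjusted p = 0.057). Fitted with the covariate it was -0.081 (adjusted p = 0.928).

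The 3 Tgfa probe sets disagreed. Probe set 1421943_PM_at averaged 305 ± 18.1 (SD, n = 4) in ZsGreen-high, 314.2 ± 16.2 in ZsGreen-dim, 422.2 ± 42.4 in Sca1+ and 394 ± 41.5 in Sca1- ZsGreen-negative cells, near the background. With limma, adjusted over all probe sets, it passed 4 comparisons, with ZsGreen-high (adjusted p = 0.00142 and 0.00435) and ZsGreen-dim cells (adjusted p = 0.0381 and 0.0245) below Sca1+ and Sca1- ZsGreen-negative cells. Probe set 1450421_PM_at lay between 541.5 and 594.5 on average in all 4 populations and passed none.

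Btc, betacellulin, was represented by probe set 1421161_PM_at and gave 667, 781, 573 and 616 in ZsGreen-high and 652, 952, 767 and 782 in ZsGreen-dim cells. It gave 848, 763, 677 and 865 in Sca1+ and 617, 892, 760 and 730 in Sca1- ZsGreen-negative cells, and all 4 populations overlapped. Its differences lay between -0.26 and 0.078 log2 units with SEs of 0.13, and the smallest adjusted p was 0.164, for ZsGreen-high against Sca1+ ZsGreen-negative cells. The other Btc probe set passed none either. Btc and Ereg, genes of the same chromosomal cluster, correlated at r = -0.087 over the 16 arrays.

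In the first comparison, ZsGreen-high against Sca1+ ZsGreen-negative cells, 3 of the 6 ligands were called, against 30.9% of all genes. Higher was Nrg1 alone, against 17% of all genes, and lower were Hbegf and Egf, against 13.9%. Between ZsGreen-dim and Sca1+ ZsGreen-negative cells limma called 0 of the 6 ligands, against 1.51% of all genes (0.901% higher and 0.608% lower). Only Egf, 1 of the 6, had an unadjusted p under 0.05 there, and with the mouse as a block limma called 2, Hbegf and Egf, neither of which passed with the block dividing mouse 2. The mouse block raised all genes called there from 258 to 2386. Between ZsGreen-high and ZsGreen-dim cells 1 of the 6, Hbegf, was called lower, against 1.42% of all genes (0.485% higher and 0.93% lower).

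Between the Sca1+ and Sca1- ZsGreen-negative populations limma called 0 of the 6 ligands, against 2.45% of all genes (1.22% higher and 1.23% lower), and 2 of the 6, Ereg and Egf, had an unadjusted p under 0.05. Between ZsGreen-high and Sca1- ZsGreen-negative cells 4 of the 6 were called, against 35.9% of all genes. Higher were Ereg and Nrg1, against 19.2%, and lower were Hbegf and Tgfa, against 16.7%. Between ZsGreen-dim and Sca1- ZsGreen-negative cells only Ereg was called, higher, against 13.9% of all genes (7.96% higher and 5.89% lower). The comparisons share populations, so a ligand called in several of them is not several independent results. The median difference of the 6 ligands was -0.24 log2 units in the first comparison and -0.15 between ZsGreen-high and Sca1- ZsGreen-negative cells, beside -0.002 and -0.011 for all genes. Scaling to the hybridization controls moved the split of all calls from 2900 higher of 5276 to 10260 of 11145 in the first comparison, and from 3283 of 6143 to 11318 of 12271 between ZsGreen-high and Sca1- ZsGreen-negative cells. For ZsGreen-high against ZsGreen-dim cells it moved from 83 higher of 242 to 6914 of 7163, and for ZsGreen-dim cells from 154 of 258 to 523 of 573 against Sca1+ and from 1361 of 2368 to 1727 of 2045 against Sca1- ZsGreen-negative cells. Under that scaling Hbegf still fell and Nrg1 and Ereg rose from Sca1+ ZsGreen-negative to ZsGreen-high cells, at -2.15 (adjusted p = 0.000115), 1.15 (adjusted p = 7.87e-05) and 1.57 (adjusted p = 0.00513).

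**Figure D3:**
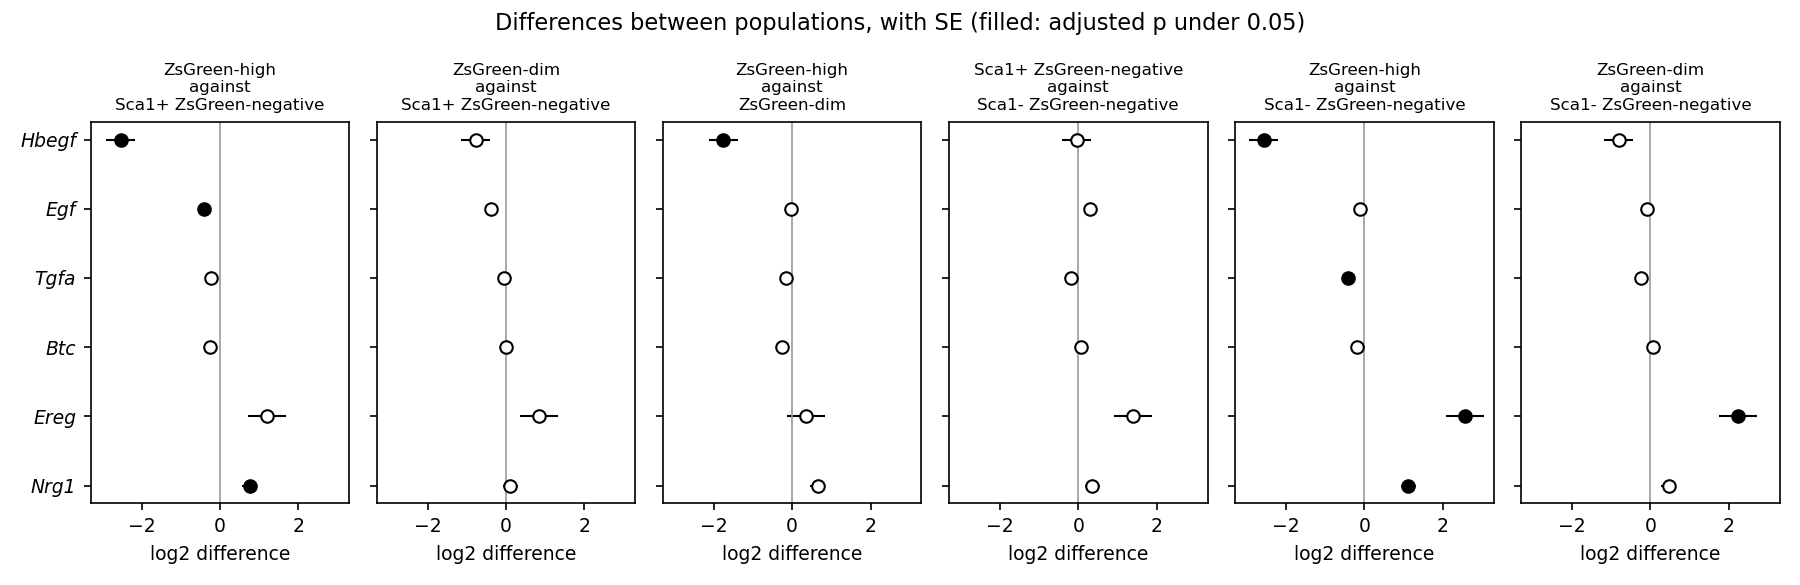
Log2 difference of each measured ligand in the 6 comparisons between populations, with the SE from the limma fit over all 17097 genes; filled circles passed an adjusted p of 0.05. Hbegf lies left of 0 and Ereg and Nrg1 right of 0 in the 2 comparisons of ZsGreen-high with ZsGreen-negative cells, and only Hbegf passed between ZsGreen-high and ZsGreen-dim cells.

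Of the 4 other ligands, Epgn, Nrg2, Nrg3 and Nrg4, only Nrg3 passed a test, lower in ZsGreen-high than in Sca1- ZsGreen-negative cells by 0.17 log2 units (SE 0.054, adjusted p = 0.0222). It was below background on all 16 arrays, where the signal has no order. Epgn (epigen), which lies next to Ereg, was above background on 2 ZsGreen-high and 2 ZsGreen-dim arrays and on 0 of the 8 ZsGreen-negative arrays. Its mean signal was 277.5 in ZsGreen-high, 302.5 in ZsGreen-dim, 299.8 in Sca1+ and 299.5 in Sca1- ZsGreen-negative cells. That count followed the background, which was 265, 234, 301 and 292 on the arrays exceeding it and 329 to 488 on the ZsGreen-negative arrays. Nrg2 and Nrg4 were above background on all 16 arrays and passed no comparison.

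Of the receptors, Erbb3 and Erbb2 were lower in ZsGreen-high cells than in both ZsGreen-negative populations. By the probe set used, Egfr was lower in Sca1- ZsGreen-negative cells than in the other 3 populations. Egfr, the receptor for most of these ligands, gave 7275, 7616, 5715 and 6815 in ZsGreen-high cells and 6821, 6852, 4921 and 4625 in ZsGreen-dim cells (probe set 1435888_PM_at). It gave 6525, 4711, 4655 and 5543 in Sca1+ ZsGreen-negative cells and 4012, 2888, 3092 and 2907 in Sca1- ZsGreen-negative cells, the latter below every other array. Egfr was 2.13-fold higher in ZsGreen-high (1.09 log2 units, SE 0.16, adjusted p = 0.000108) and 1.79-fold higher in ZsGreen-dim than in Sca1- ZsGreen-negative cells (0.84, SE 0.16, adjusted p = 0.00282). The Sca1+ exceeded the Sca1- ZsGreen-negative cells by 0.73 log2 units (SE 0.16, adjusted p = 0.0199), in 4 of 4 mice.

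Without mouse 2 these 3 differences were 0.99 (adjusted p = 0.00508), 0.70 (adjusted p = 0.0654) and 0.74 (adjusted p = 0.125). The last call was also lost without mouse 3 (adjusted p = 0.0728) or mouse 4 (adjusted p = 0.238), without the Sca1+ array of mouse 1 (adjusted p = 0.0619) or 4 (adjusted p = 0.0626), and without the Sca1- array of mouse 2 (adjusted p = 0.0645) or 4 (adjusted p = 0.0754). ZsGreen-high against Sca1+ ZsGreen-negative cells gave 0.36 (SE 0.16, adjusted p = 0.0979), which passed with the mouse as a block (adjusted p = 0.028) but not with the block dividing mouse 2 (0.24, adjusted p = 0.0608), and passed without mouse 1 (0.43, adjusted p = 0.0468) and without its Sca1+ array (0.46, adjusted p = 0.0395). Under the epithelial covariate the first of the 3 was 0.29 and no longer passed (adjusted p = 0.506), while the second was 0.60 (adjusted p = 0.00246) and the third 0.74 (adjusted p = 0.000255).

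The 6 Egfr probe sets disagreed. With limma, adjusted over all probe sets, ZsGreen-high exceeded Sca1- ZsGreen-negative cells for 1451530_PM_at (1.37, adjusted p = 2.82e-05), 1424932_PM_at (1.22, adjusted p = 0.000131) and 1460420_PM_a_at (0.63, adjusted p = 0.00164), as for the one used. The differences for 1432647_PM_at (0.22, adjusted p = 0.0868) and 1454313_PM_at (-0.25, adjusted p = 0.182) did not pass. These 2 and 1460420_PM_a_at also did not pass for ZsGreen-dim (adjusted p = 0.117, 0.987 and 0.0615) or Sca1+ ZsGreen-negative (adjusted p = 0.63, 0.987 and 0.186) against Sca1- ZsGreen-negative cells. In both of those comparisons 1451530_PM_at and 1424932_PM_at passed, like the one used. Probe set 1451530_PM_at also passed for ZsGreen-high against Sca1+ ZsGreen-negative cells (0.55, adjusted p = 0.0167), where the other 5 did not. Over the 16 arrays Egfr correlated with Ereg at r = 0.882 and with Hbegf at r = -0.738.

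Erbb3, the neuregulin receptor that signals through a partner, gave 1019, 1323, 3283 and 1658 in ZsGreen-high and 3997, 3874, 6168 and 5907 in ZsGreen-dim cells (probe set 1434606_PM_at). It gave 6035, 8966, 10287 and 8605 in Sca1+ and 8114, 9695, 12921 and 11041 in Sca1- ZsGreen-negative cells, and the ZsGreen-high arrays lay below all others. It fell by 2.34 log2 units from Sca1+ ZsGreen-negative to ZsGreen-high cells (SE 0.29, adjusted p = 0.000169), a level 5.05-fold lower, and by 2.65 from Sca1- ZsGreen-negative cells (SE 0.29, adjusted p = 2.21e-05). Without mouse 2 these were -2.20 (adjusted p = 0.0102) and -2.57 (adjusted p = 0.00224). Erbb3 correlated with Hbegf at r = 0.98 over the 16 arrays and 0.923 within populations, and with the epithelial mean as a covariate its first difference was -0.62 (adjusted p = 0.403) and its second -0.95 (adjusted p = 0.0464). The other Erbb3 probe set passed both comparisons too, at -2.32 (adjusted p = 0.000195) and -2.56 (adjusted p = 2.76e-05), adjusted with limma over all probe sets.

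Erbb3 also fell by 1.57 log2 units from ZsGreen-dim to ZsGreen-high cells (SE 0.29, adjusted p = 0.0228) and by 1.08 from Sca1- ZsGreen-negative to ZsGreen-dim cells (SE 0.29, adjusted p = 0.0241). Under the epithelial covariate they were -0.39 (adjusted p = 0.567) and -0.56 (adjusted p = 0.0139). Both calls were lost without mouse 2 (adjusted p = 0.221 and 0.189) or mouse 4 (adjusted p = 0.256 and 0.131), and the first without 5 single arrays, the ZsGreen-high arrays of mice 1 (adjusted p = 0.077), 2 (adjusted p = 0.089) and 4 (adjusted p = 0.057) and the ZsGreen-dim arrays of mice 3 (adjusted p = 0.0902) and 4 (adjusted p = 0.0829). The second was lost without the ZsGreen-dim array of mouse 1 (adjusted p = 0.0786) or 2 (adjusted p = 0.0791) and the Sca1- array of mouse 2 (adjusted p = 0.0513), 3 (adjusted p = 0.0747) or 4 (adjusted p = 0.0667). ZsGreen-dim against Sca1+ ZsGreen-negative cells gave -0.77 (SE 0.29, adjusted p = 0.153), which passed with the mouse as a block (adjusted p = 0.00892) and with the block dividing mouse 2 (-0.66, adjusted p = 0.0235).

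Erbb2, the receptor without a ligand, averaged 1287 ± 22.2 (SD, n = 4) in ZsGreen-high, 1549 ± 122 in ZsGreen-dim, 1857 ± 231 in Sca1+ and 2110 ± 294 in Sca1- ZsGreen-negative cells. Its ZsGreen-high arrays, between 1263 and 1313, lay below all others, and it fell by 0.52 log2 units from Sca1+ ZsGreen-negative (SE 0.10, adjusted p = 0.00168) and by 0.70 from Sca1- ZsGreen-negative cells (SE 0.10, adjusted p = 0.000126). Under scaling to the hybridization controls these were -0.14 (adjusted p = 0.42) and -0.27 (adjusted p = 0.124). ZsGreen-dim cells lay 0.44 below Sca1- ZsGreen-negative cells (SE 0.10, adjusted p = 0.0113), a call lost without mouse 2 (adjusted p = 0.112) or mouse 4 (adjusted p = 0.139) and under that scaling (-0.32, adjusted p = 0.227). Under the covariate the 3 were -0.21 (adjusted p = 0.827), -0.40 (adjusted p = 0.312) and -0.34 (adjusted p = 0.0542). Erbb4 was below background on all 16 arrays and passed no comparison.

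**Figure D4:**
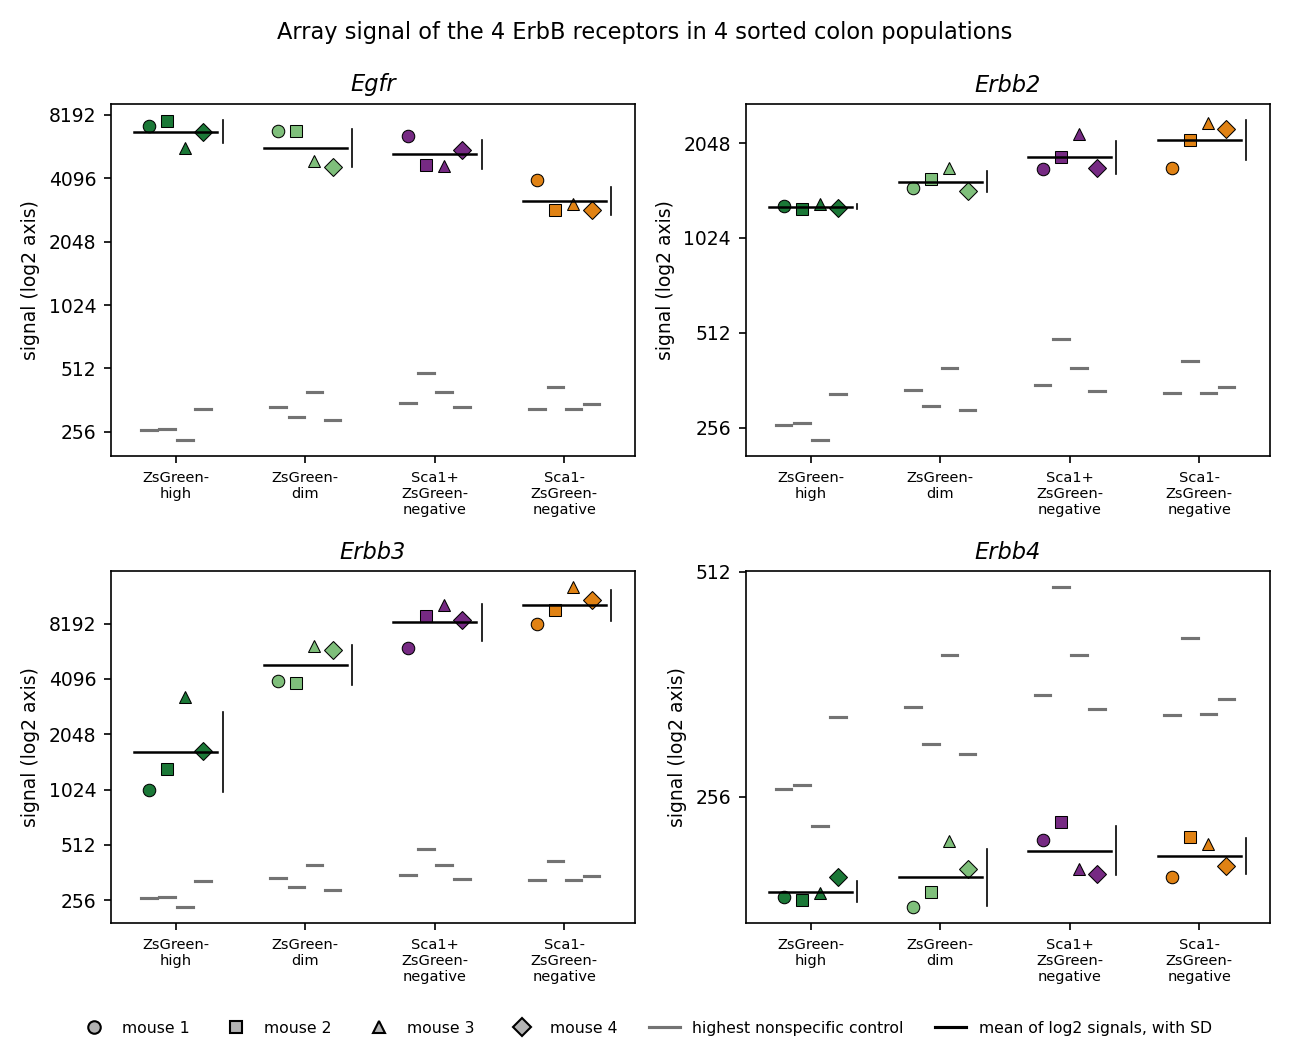
Signal of the 4 ErbB receptors (log2 axis) on the 16 arrays, by sorted population, with 1 symbol per mouse; black lines give the mean of the log2 signals and its SD over 4 arrays, and grey dashes the highest nonspecific control of each array. Erbb3 lies between 1019 and 3283 in ZsGreen-high cells, below all other arrays, Egfr is lowest in Sca1- ZsGreen-negative cells, and Erbb4 lies below the background throughout.

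Among the 16 measured genes of ligand shedding and processing, 8 rose and 2 fell from Sca1+ ZsGreen-negative to ZsGreen-high cells, with a median of 0.27 log2 units, against 17% of all genes higher, 13.9% lower and a median of -0.002. Adam17, a sheddase of several of these ligands, rose by 0.43 log2 units (adjusted p = 0.0418), a call lost without mouse 2 (adjusted p = 0.166). Adam19, a metalloprotease that can cleave neuregulin, averaged 9206 ± 1640 (SD, n = 4) in ZsGreen-high and 3132 ± 1400 in Sca1- ZsGreen-negative cells, a rise of 1.63 log2 units (SE 0.29, adjusted p = 0.000545). Adam9, a related protease, rose by 0.84 in the same comparison (SE 0.13, adjusted p = 0.000222). Rhbdl2, a rhomboid protease, fell by 2.16 log2 units from Sca1+ ZsGreen-negative to ZsGreen-high cells (SE 0.43, adjusted p = 0.00173).

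Adam12, a protease reported to shed Hbegf, was highest in Sca1+ ZsGreen-negative cells, at 3778 ± 1340 (SD, n = 4) against 796.2 ± 204 in Sca1- ZsGreen-negative and 1437 ± 353 in ZsGreen-high cells. The difference between the ZsGreen-negative populations was 2.21 log2 units (SE 0.23, adjusted p = 5.9e-05). Of this group, 1 rose and 1 fell between ZsGreen-dim and Sca1+ ZsGreen-negative cells, 1 rose between the ZsGreen-negative populations, 10 rose and 3 fell between ZsGreen-high and Sca1- ZsGreen-negative cells, and 5 rose for ZsGreen-dim against Sca1- ZsGreen-negative cells. In this order, 0.901% of all genes rose and 0.608% fell, 1.22% rose, 19.2% rose and 16.7% fell, and 7.96% rose. Between ZsGreen-high and ZsGreen-dim cells limma called 0 of the 16, and 4 had an unadjusted p under 0.05.

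Among the 16 measured adaptors and signal transducers, 7 rose and 1 fell from Sca1+ ZsGreen-negative to ZsGreen-high cells and 9 rose and 1 fell against Sca1- ZsGreen-negative cells. Of all genes, 17% rose and 13.9% fell in the first and 19.2% rose and 16.7% fell in the second. ZsGreen-dim cells had 2 higher and 1 lower than Sca1- ZsGreen-negative cells, against 7.96% and 5.89% of all genes, while limma called 0 of the 16 in the other 3 comparisons, where 3 to 6 had an unadjusted p under 0.05. Gab2, a docking protein, rose by 0.85 log2 units from Sca1- ZsGreen-negative to ZsGreen-high cells (SE 0.13, adjusted p = 0.000183). Pik3ca, a catalytic subunit of phosphoinositide 3-kinase, rose by 0.63 (SE 0.14, adjusted p = 0.00342), and Braf, a kinase of the ERK cascade, by 0.55 (SE 0.13, adjusted p = 0.00471) from Sca1+ ZsGreen-negative to ZsGreen-high cells. Both calls were lost without mouse 2 (adjusted p = 0.065 for each). Plcg1, a phospholipase, was 0.56 higher in ZsGreen-dim than in Sca1- ZsGreen-negative cells (SE 0.13, adjusted p = 0.0112) and lost that call without mouse 2 (adjusted p = 0.0952) and without mouse 4.

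The list of negative regulators of ErbB receptors held 17 genes, though Eps8 on it is a receptor substrate rather than an inhibitor. From Sca1+ ZsGreen-negative to ZsGreen-high cells 5 rose and 6 fell, and 3 rose and 6 fell against Sca1- ZsGreen-negative cells. The shares of all genes were 17% higher and 13.9% lower, and 19.2% higher and 16.7% lower. Socs3, a feedback inhibitor of cytokine signalling, rose by 1.59 log2 units from Sca1- ZsGreen-negative to ZsGreen-high cells (SE 0.21, adjusted p = 7.26e-05). Eps8, an EGF receptor substrate, fell by 1.44 from Sca1+ ZsGreen-negative to ZsGreen-high cells (SE 0.21, adjusted p = 0.000344), and Cblc, a ubiquitin ligase of epithelia, by 1.37 from Sca1- ZsGreen-negative cells (SE 0.30, adjusted p = 0.00251). Lrig1, an inhibitor that promotes loss of ErbB receptors and marks crypt stem cells, fell by 1.25 from Sca1- ZsGreen-negative to ZsGreen-dim cells (SE 0.20, adjusted p = 0.000833). Its unadjusted limma p was under 0.05 for each Sca1+ population against Sca1- ZsGreen-negative cells, and in no comparison among the Sca1+ populations. Of this list 4 rose and 2 fell for ZsGreen-dim against Sca1- ZsGreen-negative cells, and 1 rose and 1 fell between the ZsGreen-negative populations, beside 7.96% and 5.89%, and 1.22% and 1.23%, of all genes. In the other comparisons limma called 0 of the 17, with 7 at an unadjusted p under 0.05 for ZsGreen-dim against Sca1+ ZsGreen-negative cells and 4 for ZsGreen-high against ZsGreen-dim cells.

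Of the 18 measured genes of ERK feedback and output, 3 rose and 5 fell from Sca1+ ZsGreen-negative to ZsGreen-high cells and 2 rose and 7 fell against Sca1- ZsGreen-negative cells. Of all genes 17% rose and 13.9% fell in the first, so that the share of the list that rose was near that of all genes, and 19.2% rose and 16.7% fell in the second. Dusp4, an ERK phosphatase, fell by 1.61 log2 units from Sca1+ ZsGreen-negative to ZsGreen-high cells (SE 0.32, adjusted p = 0.00181). Fosl1, an AP-1 subunit, fell by 1.53 (SE 0.37, adjusted p = 0.00551), which was lost without mouse 2 (adjusted p = 0.0512). Myc was 1.47 log2 units higher in Sca1+ than in Sca1- ZsGreen-negative cells (SE 0.17, adjusted p = 0.000139). Etv1, an ETS factor, fell by 1.46 in that comparison (SE 0.25, adjusted p = 0.00391), which was lost without mouse 4 (adjusted p = 0.089). Of this list 1 rose and 2 fell between the ZsGreen-negative populations, 1 fell between ZsGreen-dim and Sca1+ ZsGreen-negative cells, and 1 rose and 3 fell for ZsGreen-dim against Sca1- ZsGreen-negative cells. The shares of all genes were 1.22% higher and 1.23% lower, 0.608% lower, and 7.96% higher and 5.89% lower. Between ZsGreen-high and ZsGreen-dim cells limma called 0 of the 18, and 3 had an unadjusted p under 0.05.

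These counts depended on mouse 2 and on the epithelial covariate. Without mouse 2, the genes called from Sca1+ ZsGreen-negative to ZsGreen-high cells numbered 6 instead of 10 for shedding, 2 instead of 8 for adaptors, 5 instead of 11 for negative regulators and 4 instead of 8 for ERK output. Over all genes the calls in this comparison also dropped, from 5276 to 2734, so the loss was not particular to these lists. With the epithelial mean as a covariate, limma called none of the 4 lists' genes in that comparison, in a fit that called 1 of 17097 genes.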

How the data were processed

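RNA from 16 samples, 4 sorted populations of 4 mice, was hybridized to Affymetrix arrays. The submitters' processing notes name Expression Console 1.1. How probes were summarized or background corrected, and the genome build, is not stated in the labels. The authors deposited a score, each probe set standardized over the 16 arrays on a log scale, so they hold neither levels nor fold changes, and the planned log2 test was run on recovered signals. Whole-number signals were recovered for all 45141 probe sets with Python 3.11.15, numpy 2.4.6, pandas 2.3.3 and numba 0.67.0, to within 0.0001 of a whole number, and tested on simulated data. This step makes no use of groups.

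Probe sets were named by the platform table: 1 gene was given for 28898, several for 551 and none for 15588, beside 104 controls. Sca1 (Ly6a) was named by no probe set. The 17097 genes were fitted in R 4.3.3 by lmFit and eBayes of limma 3.58.1, with 4 population means, no block and Benjamini-Hochberg adjustment at 0.05. Fold changes are powers of the difference in mean log2 signal. Median array signals lay between 661 and 686, and 59.3% to 81.5% of probe sets exceeded the highest nonspecific control; the number of arrays limits the precision. Nothing says the mice were housed or sorted apart, so p-values measure the spread between these samples.

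The mouse number pairs the arrays by label. Deviations from population means correlated at 0.519 on average between arrays of mouse 1, 0.507 for mouse 3, 0.112 for mouse 4 and -0.079 for mouse 2. For mouse 2, ZsGreen-high and ZsGreen-dim arrays correlated at 0.485, the 2 ZsGreen-negative arrays at 0.505, and arrays across these pairs between -0.432 and -0.324.

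The members, the 18 gene lists and the tests were chosen with earlier results of these data known. Named genes were every member, all receptors and other ligands, up to 4 genes past the threshold with the largest difference from each pathway list (Adam17 was added after its values were seen), and the 5 genes most correlated with each ligand past the F test. Alternatives covered the block, probe set choice, low-signal filter, offset, normalization, scaling, an epithelial covariate, the deposited scores and left-out arrays; figures were drawn with matplotlib 3.10.9.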

Additional observations from a re-analysis of the deposited data

Results flagged for a closer look

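In Sca1+ ZsGreen-negative cells the Egf signal of mouse 4 was 748, far above the 487 to 514 of the other 3 mice, and the gap made up 0.874 of the group's range on the log2 scale, beyond Dixon's critical value for 4 samples. It was the 1 such array among 40 groups of 4 checked, where chance marks about 1 in 20.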

How the results depend on the processing

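Each result was recomputed under 32 alternatives, 3 of them chosen after seeing the data (the Xist and Y gene class as a covariate, a replicate block with mouse 2 divided, and leaving out mouse 2 and the Sca1+ ZsGreen-negative array of mouse 1 together). Of the ligand differences, 1052 kept their direction and their side of the threshold, 38 fell below it, 18 rose past it and 44 changed sign; the cause was not tested. With the mouse as a replicate block, 2 ligands instead of 0 were called between ZsGreen-dim and Sca1+ ZsGreen-negative cells, 2 instead of 1 between ZsGreen-dim and Sca1- ZsGreen-negative cells, and 5 instead of 3 in the test over 4 populations, and the block changed no other call of a ligand. All genes called rose as well, from 258 to 2386, from 2368 to 3769 and from 5522 to 6228 in the same order. With the block dividing mouse 2, or with the mean of all probe sets, 2 were called between ZsGreen-dim and Sca1- ZsGreen-negative cells, and under scaling to the hybridization controls 2 there and 2 between ZsGreen-high and ZsGreen-dim cells. In the latter, the deposited scores gave 0 and the Xist and Y gene covariate 2. For ZsGreen-dim against Sca1- ZsGreen-negative cells, all genes called numbered 3159 (divided block), 2461 (probe set mean) and 2045 (scaling). For ZsGreen-high against ZsGreen-dim cells they went from 242 to 7163 (scaling), 0 (deposited scores) and 1645 (covariate). With the epithelial mean as a covariate, 0 ligands were called in the F test and in the 3 comparisons of ZsGreen-high cells. All genes called numbered 1044 in the F test and 1, 0 and 293 in those comparisons. Leaving out arrays, the counts ran from 1 to 4 for ZsGreen-high against Sca1+ ZsGreen-negative, 0 to 1 for ZsGreen-dim against Sca1+ ZsGreen-negative, 0 to 2 for ZsGreen-high against ZsGreen-dim, 0 to 1 between the ZsGreen-negative populations, 3 to 4 and 0 to 2 for ZsGreen-high and ZsGreen-dim against Sca1- ZsGreen-negative, and 1 to 4 in the F test. In the same order, all genes called ran from 2734 to 5678, 10 to 1540, 0 to 833, 96 to 789, 3838 to 6856, 614 to 4025 and 2600 to 6124.

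Of the differences that changed sign, 1 was called in the main setting, Tgfa between ZsGreen-high and Sca1- ZsGreen-negative cells, under the scaling. Scaling to the hybridization controls gave Hbegf 0.016 between the ZsGreen-negative populations, and Btc 0.12 and 0.059 for ZsGreen-high and ZsGreen-dim against Sca1+ ZsGreen-negative, 0.062 for ZsGreen-high against ZsGreen-dim and 0.25 for ZsGreen-high against Sca1- ZsGreen-negative cells. It gave Tgfa 0.16, 0.0098, 0.15 and 0.027 in the same order, and Egf 0.29 for ZsGreen-high against ZsGreen-dim and 0.31 and 0.028 for ZsGreen-high and ZsGreen-dim against Sca1- ZsGreen-negative cells. The epithelial covariate gave Ereg -0.20 for ZsGreen-high against Sca1+ ZsGreen-negative and -0.61 against ZsGreen-dim cells. It gave Tgfa 0.11, 0.048 and 0.065 in the first 3 comparisons, and Egf 0.21, 0.23 and 0.016 where the scaling turned it. The mean of all probe sets gave Btc 0.039 for ZsGreen-dim against Sca1+ ZsGreen-negative cells. Leaving out arrays, Btc ran from -0.11 to 0.12 there, from -0.049 to 0.18 between the ZsGreen-negative populations and from -0.024 to 0.16 for ZsGreen-dim against Sca1- ZsGreen-negative cells. Hbegf ran from -0.21 to 0.18 and Tgfa from -0.29 to 0.026 between the ZsGreen-negative populations. Tgfa ran from -0.17 to 0.0082 and Nrg1 from -0.053 to 0.44 for ZsGreen-dim against Sca1+ ZsGreen-negative cells. Egf ran from -0.086 to 0.080 for ZsGreen-high against ZsGreen-dim and from -0.18 to 0.0081 for ZsGreen-dim against Sca1- ZsGreen-negative cells. Signals at or near the background, those of Nrg1 in ZsGreen-negative cells and of Egf, Epgn, Erbb4 and Nrg3, limit what the arrays can show.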
